A study of Mus musculus with 13 samples.

Results

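The 44 genes described here encode the machinery that copies DNA in S phase of the cell cycle, together with the enzymes that supply its nucleotides and the regulators that start it. They were chosen by function from the 34856 genes analysed, with earlier results of these data known, though no expression value entered the rule. They comprise 10 genes for licensing of replication origins (Orc1, Orc6, Cdc6, Cdt1 and Mcm2 to Mcm7), 6 for activation of the helicase (Mcm10, Cdc45 and Gins1 to Gins4) and 7 for polymerases and primase (Pola1, Pola2, Prim1, Prim2, Pold1, Pole and Pole2). A further 6 encode the sliding clamp and its loader (Pcna and Rfc1 to Rfc5), 3 the single-strand binding protein (Rpa1 to Rpa3), 2 the joining of Okazaki fragments (Lig1 and Fen1) and 5 nucleotide supply (Rrm1, Rrm2, Tyms, Tk1 and Dut). The set is completed by 4 regulators of the G1/S transition (Ccne1, Ccne2, E2f1 and E2f2) and 1 subunit of the chromatin assembly factor (Chaf1a).

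RNA was sequenced from Neuro2a, an established mouse neuroblastoma cell line, after a simulated failure of cryostorage. All cells were frozen in medium with 10% DMSO, a cryoprotectant. In the experimental group the liquid nitrogen around the vials evaporated within 10 h, the vials then settled at 4 °C for 24 h, and they were moved to -80 °C for 72 h before a rapid thaw at 37 °C. The control group was kept frozen without interruption and was thawed and plated by the same procedure. At passage 1 there were 3 control and 4 experimental libraries, and at passage 6 there were 3 of each. The labels do not say whether replicates came from separate vials or flasks, so p-values measure only the spread between these libraries, which may be technical.

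Replication begins when the origin recognition complex, with Cdc6 and Cdt1, loads the ring of Mcm2 to Mcm7 onto DNA in G1. In S phase Cdc45 and the GINS complex turn that ring into the active helicase, polymerase alpha and primase lay down primers, and replication factor C places the PCNA clamp that holds the main polymerases on the template. Many of these genes are transcribed at the G1/S boundary by E2F factors when cyclin E and its kinase inactivate the retinoblastoma protein, so their RNA is commonly read as a sign of cycling cells. In RNA from a whole culture, fewer cells in S phase and less RNA per cell cannot be told apart.

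Values are FPKM, a count of fragments divided by transcript length and by the fragments mapped in the library, and sequencing depth is unknown. FPKM summed to 315034 to 354288 in a library, and 12014 to 12467 genes reached 1 FPKM. Of 18 markers of neuroblastoma cells, 16 reached 1 FPKM in 11 libraries and all 18 in experimental libraries 2 and 3 of passage 6. Those latter libraries also stood apart in liver markers, whose 14 genes summed to 171 and 142 FPKM against at most 2.21 FPKM elsewhere, and in 10 brain markers, which summed to 56.4 and 44.2 FPKM against at most 13.8 FPKM. The 21 colon epithelium markers summed to 8.4 FPKM in experimental library 3 of passage 1 and to 8.43 and 9.0 FPKM in experimental libraries 2 and 3 of passage 6. In the other 10 libraries that sum ranged from 95.9 to 534 FPKM. The 13 cartilage markers summed to 12.9 to 64.5 FPKM over all 13 libraries. The part of these markers in the results below was not tested, and counts of called genes are also given without these libraries.

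All 44 genes reached 1 FPKM in every one of the 13 libraries, so all were tested at both passages and none entered through 1 group alone. In control libraries of passage 1 the highest mean level was that of Pcna, the sliding clamp, at 105 ± 1.13 FPKM (SD, n = 3), and the lowest that of Gins3, a GINS subunit, at 3.39 ± 0.212 FPKM (SD, n = 3). The same genes were highest and lowest in controls of passage 6, at 63.3 ± 1.51 and 2.12 ± 0.324 FPKM (SD, n = 3). The 44 genes together held 0.317% to 0.327% of all FPKM in controls of passage 1 and 0.235% to 0.239% in controls of passage 6. The mitochondrially encoded share of FPKM was 14.5% to 14.8% in controls of passage 1 and 27.1% to 27.4% in controls of passage 6. Its part in the lower share of the 44 genes was not tested. The control mean was lower at passage 6 for 37 of the 44 genes, beside 65.6% of the 11908 genes tested at both passages. The passages were deposited as separate tables, so this difference in levels was not tested.

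E2F factors bind a short motif that can be searched for in the promoters of the set. RefSeq promoters on GRCm38.p6, from 250 bases before to 50 bases after the start, were found for 36 of the 44 genes, with 41 promoters in all. The letters TTTCCCGC, TTTCGCGC, TTTGCCGC or TTTGGCGC, the forms of the E2F consensus searched on both strands with overlaps allowed, occurred in 14 of the 41 promoters (34.1%) and in 2.26% of the 32851 promoters of the table. The CCAAT box, read as CCAAT on either strand, occurred in 24 of the 41 (58.5%) and in 37.4% of all. A match is a description of the letters and not a binding site. The stretches below end at the base before the start and are written 5′ to 3′ along the gene, with E2F matches in capitals. They were chosen because Mcm6 and Mcm2 rose at passage 6, Mcm5 did not pass the test there, and Orc6 fell.
Mcm6, chr1:128359706-128359835, minus strand: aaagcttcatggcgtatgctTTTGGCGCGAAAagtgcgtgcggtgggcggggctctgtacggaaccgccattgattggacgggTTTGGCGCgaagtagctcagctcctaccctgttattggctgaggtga
Mcm5, chr8:75109339-75109508, plus strand: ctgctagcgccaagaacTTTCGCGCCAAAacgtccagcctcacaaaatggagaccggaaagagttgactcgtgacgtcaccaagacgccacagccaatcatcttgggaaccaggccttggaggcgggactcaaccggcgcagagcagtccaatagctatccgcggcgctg
Mcm2, chr6:88898781-88898910, minus strand: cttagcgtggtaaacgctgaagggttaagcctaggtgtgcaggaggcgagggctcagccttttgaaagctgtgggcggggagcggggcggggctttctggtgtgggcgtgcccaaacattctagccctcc
Orc6, chr8:85299502-85299631, plus strand: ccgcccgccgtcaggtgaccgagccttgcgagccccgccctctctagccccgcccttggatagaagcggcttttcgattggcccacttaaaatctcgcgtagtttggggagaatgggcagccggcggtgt

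The Mcm6 stretch held 3 matches, of which 2 overlap, and the Mcm5 stretch held 2 that overlap. The stretches of Mcm2 and Orc6 held 0. Across the windows searched, 3 of the 8 genes lower at passage 6 had a match (E2f2, Pole2 and Rfc3), as did 1 of the 2 higher genes (Mcm6) and 10 of the 26 not called with a promoter in the table. Matches thus occurred among genes that rose, that fell and that did not pass the test.

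The question at passage 1 was how cells that survived the storage failure differed from their controls soon after the thaw. Of the 44 replication genes 3 fell and 0 rose in experimental cells (limma on log2(FPKM + 1), adjusted p under 0.05 by Benjamini-Hochberg over all genes tested). The 3 were Rfc1, Rfc2 and Rfc4, subunits of the clamp loader, with levels 1.18 to 1.26 times lower on the scale of FPKM plus 1. The share called was 6.82%, against 30.4% of the 12469 genes tested. Higher calls made up 11.5% and lower calls 18.9% of all genes. The median change of the 44 genes was -0.05 (log2), the same as that of all genes tested, and 27 of 44 lay below 0 (61.4%, against 59.9% of all genes). At an unadjusted p under 0.05, limma gave 2 higher genes (E2f2 and Ccne2) and 4 lower ones (Rfc1, Rfc2, Rfc4 and Pole2) among the 44. Over all 12469 genes it gave 2019 higher and 3344 lower at that threshold.

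Rfc1, the large subunit of the clamp loader, measured 25.7, 26.6 and 25.6 FPKM in control libraries 1 to 3 and 21.3, 23.6, 20.7 and 21.7 FPKM in experimental libraries 1 to 4. All 4 experimental values lay below all 3 control values. The gene fell by 0.24 on the log2 scale (SE 0.053, limma adjusted p = 0.0118). Rfc4, a small subunit, measured 17.7, 17.9 and 18.7 FPKM in controls and, after the storage failure, 15.1, 15.8, 13.1 and 13.2 FPKM. Here, too, the groups did not overlap, and libraries 3 and 4 were the lowest. Rfc4 fell by 0.32 on the log2 scale (SE 0.072, limma adjusted p = 0.0125).

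For Rfc2, the remaining called subunit, controls stood at 13.3, 12.7 and 12.4 FPKM and experimental libraries at 11.6, 11.0, 8.57 and 8.97 FPKM. The groups were separate, with experimental libraries 3 and 4 the lowest. Rfc2 fell by 0.33 on the log2 scale (SE 0.101, limma adjusted p = 0.04). The other loader subunits did not pass the test, with Rfc5 at -0.22 (adjusted p = 0.135) and Rfc3 at -0.06 (adjusted p = 0.594). Pcna, the clamp itself, measured 105 ± 1.13 FPKM in controls (SD, n = 3) and 105 ± 11.9 FPKM in experimental libraries (SD, n = 4). Its log2 change was -0.01, with a 95% interval from -0.20 to 0.19.

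The calls of Rfc1 and Rfc4 each held in 6 of 7 limma fits that left out 1 library, and were lost without control 2 for Rfc1 (adjusted p = 0.0576) and without control 3 for Rfc4 (adjusted p = 0.0564). Rfc2 held in 2 of 7: it was lost without any one of the controls or without experimental library 3 or 4 (adjusted p 0.0585 to 0.127), and under each of 3 other scalings (adjusted p 0.0514 to 0.0676).

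Licensing genes showed 0 calls in 10 at passage 1, also at an unadjusted p under 0.05, with changes from -0.16 for Cdc6 to 0.17 for Mcm2. None of the 6 helicase activation genes was called either. Their most abundant gene was Gins4, a GINS subunit, which measured 26.3, 29.9 and 29.7 FPKM in controls, while experimental libraries had 30.1, 30.4, 24.1 and 28.5 FPKM. The groups overlapped, and the log2 change was -0.02 (95% interval -0.22 to 0.18). Gins2, at 23.1 ± 0.56 FPKM in controls (SD, n = 3) and 26.0 ± 2.99 FPKM in experimental libraries (SD, n = 4), had an adjusted p of 0.189 by limma.

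Among polymerases and primase, 0 of 7 genes passed at passage 1. Pole2, the accessory subunit of polymerase epsilon, came nearest. It was at 14.8, 14.4 and 15.8 FPKM in controls and, after the storage failure, at 13.5, 13.8, 9.49 and 10.3 FPKM, all 4 below the controls. Its log2 change was -0.34 (SE 0.125, limma adjusted p = 0.0733). Prim1, the catalytic subunit of primase, measured 22.8, 22.0 and 22.9 FPKM in controls, and the experimental libraries had 21.4, 21.0, 16.8 and 20.7 FPKM. The experimental values lay below the controls, library 3 the lowest, and the limma adjusted p was 0.143.

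The single-strand binding genes showed 0 calls in 3 at passage 1. Their most abundant member, Rpa2, measured 25.7, 26.1 and 25.9 FPKM in controls, and the experimental libraries had 27.1, 29.7, 22.2 and 24.7 FPKM, above and below the controls alike. Neither gene of Okazaki fragment joining was called. Lig1, the ligase that seals the fragments, measured 35.2, 35.4 and 36.3 FPKM in controls, and the experimental libraries had 38.1, 41.7, 30.3 and 36.3 FPKM. Nucleotide supply gave 0 calls in 5. Rrm2, the small subunit of ribonucleotide reductase, measured 34.8, 36.4 and 34.6 FPKM in controls, and the experimental libraries had 41.8, 47.4, 32.3 and 38.1 FPKM. Libraries 1, 2 and 4 lay above the controls and library 3 below them (log2 change 0.16, limma adjusted p = 0.309).

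Of the G1/S regulators, 0 of 4 passed at passage 1, though each fitted change was above 0. E2f2, a transcriptional activator of this gene set, measured 8.72, 8.91 and 8.38 FPKM in controls, and the experimental libraries had 12.1, 10.2, 9.7 and 9.57 FPKM. All 4 lay above the controls, library 1 highest, with a log2 change of 0.23 (SE 0.079, limma adjusted p = 0.0589). Ccne2, a cyclin E gene, had a change of 0.19 (limma adjusted p = 0.0894) and its groups overlapped. Under equal FPKM totals or median-of-ratios scaling both E2f2 and Ccne2 passed, which made 2 higher and 2 lower genes among the 44. Of all genes, 13.8% were then higher and 14.5% lower under equal totals, and 15.8% and 12.7% under median-of-ratios scaling. Those scalings also moved the share of higher calls among all called genes from 37.8% to 48.8% and 55.5%, and quantile normalization moved it to 50.1%. Chaf1a, the largest subunit of the factor that deposits histones behind the fork, was at 11.8 ± 0.387 FPKM in controls (SD, n = 3) and 11.9 ± 1.24 FPKM in experimental libraries (SD, n = 4).

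**Figure D1:**
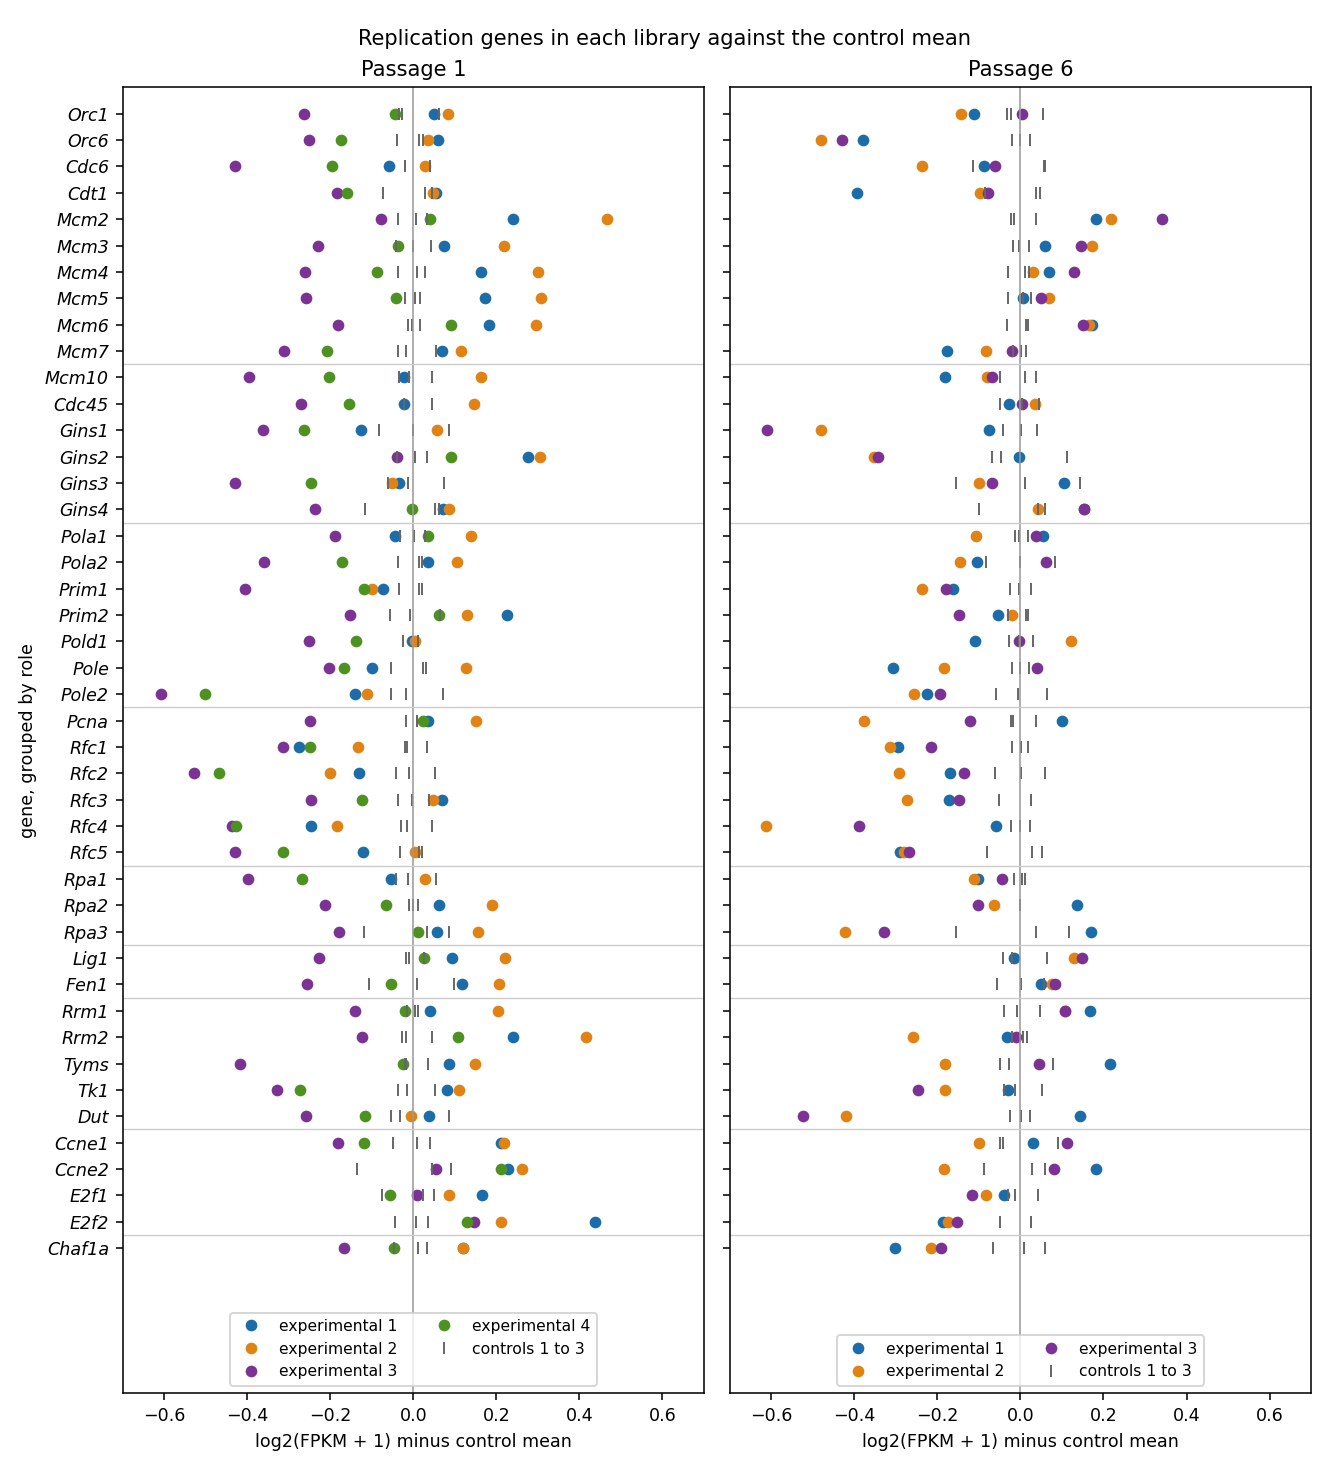
Each row is a gene, grouped by role, and the horizontal axis gives log2(FPKM + 1) minus the control mean of the passage. Coloured dots are experimental libraries and grey ticks are the 3 controls. At passage 1 the dots of library 3 lie leftmost in 42 of 44 rows and those of library 2 rightmost in 33.

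The experimental libraries of passage 1 differed from each other across the whole set. Library 3 gave the lowest of the 4 experimental values for 42 of the 44 genes (95.5%, against 35.3% of all genes tested), with E2f1 and E2f2 as the exceptions. Library 2 gave the highest for 33 (75%, against 26.7% of all genes). These counts were 38 to 42 and 36 to 39 under the 3 other scalings, which were tried after seeing the data. The median change of the 44 genes against the control mean was 0.06, 0.12, -0.25 and -0.10 (log2) in libraries 1 to 4, while the median of all genes lay between -0.06 and -0.04 in each. Mcm2 to Mcm7, the helicase ring, had medians of 0.17, 0.30, -0.24 and -0.04 in libraries 1 to 4, and Rfc1 to Rfc5 had -0.13, -0.13, -0.43 and -0.32. The loader median was thus below 0 in each library, and the helicase median above 0 in 2 and below 0 in 2.

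The spread between experimental libraries can be set beside that of all genes. The median SD of log2(FPKM + 1) was 0.178 for the 44 genes and 0.11 for all genes in the experimental group of passage 1, against 0.04 and 0.053 in its controls. At passage 6 it was 0.081 against 0.109 in the experimental group and 0.043 against 0.055 in controls. The members' share of all FPKM was 0.345%, 0.374%, 0.289% and 0.311% in experimental libraries 1 to 4 of passage 1. Library 3, the lowest, also had the smallest sum of colon markers of its passage, 8.4 FPKM, the smallest FPKM total, 315034, and the smallest mitochondrially encoded share of FPKM, 12.3% against 13.6% to 14.8% in the other libraries of passage 1. Their part in the result was not tested.

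Which replication genes were called at passage 1 depended in part on single libraries. Without experimental library 1 the same genes were called, Rfc1, Rfc2 and Rfc4. Without experimental library 3, limma called 5 higher (Ccne2, E2f2, Gins2, Mcm6 and Rrm2; 12.2% of all genes were higher) and 2 lower (Rfc1 and Rfc4; 19.2% of all genes were lower). Without experimental library 2 it called 0 higher and 6 lower (Gins1, Pole2, Rfc1, Rfc2, Rfc4 and Rfc5; 19.9% of all genes were lower). Leaving out control 2 or control 3 left 1 lower gene each, while the lower share of all genes went from 18.9% to 10.4% and 10.7%. With controls 2 and 3 against experimental libraries 1 to 3, which leaves out the libraries of that passage with the smallest cartilage sums (12.9 and 16.7 FPKM), 0 of the 44 genes were called in either direction. In that fit the calls over all genes also went down, to 3.54% higher and 4.72% lower.

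**Figure D2:**
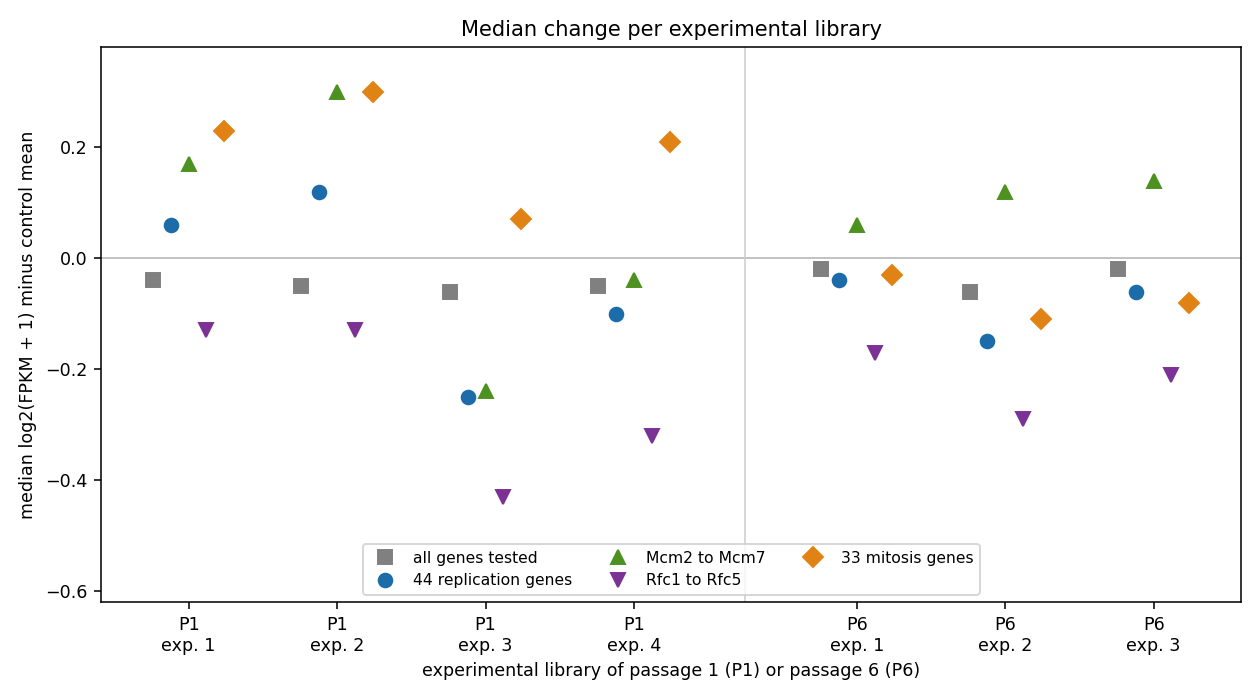
The vertical axis gives the median log2(FPKM + 1) minus the control mean in each of the 7 experimental libraries, for all genes tested, the 44 replication genes, Mcm2 to Mcm7, Rfc1 to Rfc5 and 33 mitosis genes. The replication median runs from -0.25 to 0.12 over the 4 libraries of passage 1 and from -0.15 to -0.04 over the 3 of passage 6, while all genes stay between -0.06 and -0.02.

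At passage 6, when cultures had been passaged further, the comparison asked what still differed. Of the 44 replication genes 2 rose and 8 fell in experimental cells. The 2 that rose were the helicase subunits Mcm2 and Mcm6, by 1.19 and 1.12 times on the scale of FPKM plus 1. The 8 that fell were Orc6 of the origin recognition complex, the clamp loader genes Rfc1, Rfc3 and Rfc5, Pole2, Prim1, Chaf1a and E2f2, by 1.13 to 1.35 times. The share called was 22.7%, close to the 19.8% of all 12458 genes tested. Higher calls were 4.55% of the 44 genes and 8.98% of all genes, and lower calls 18.2% and 10.8%. The median change was -0.09 (log2) for the 44 genes and -0.04 for all genes. At an unadjusted p under 0.05, limma gave 4 higher genes, with Mcm3 and Rrm1 beside the called ones, and 11 lower ones, with Gins1, Rfc2 and Rfc4. Over all 12458 genes it gave 1912 higher and 2628 lower at that threshold.

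Orc6, the smallest subunit of the origin recognition complex, showed the largest change among the 44. It measured 21.7, 22.0 and 22.4 FPKM in controls, while experimental libraries had 16.7, 15.5 and 16.1 FPKM. Every experimental value lay below every control. Orc6 fell by 0.43 on the log2 scale (SE 0.048, limma adjusted p = 0.00296), and its call held in 19 of 19 alternatives. Orc1, the other subunit in the set, measured 3.42 ± 0.147 FPKM in controls and 3.17 ± 0.229 FPKM in experimental libraries (SD, n = 3 each; limma adjusted p = 0.41).

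Mcm2 was at 25.6, 24.6 and 24.5 FPKM in controls and, after the storage failure, at 28.4, 29.1 and 31.8 FPKM, all above the controls. It rose by 0.25 (SE 0.056, limma adjusted p = 0.0238). Mcm6 measured 30.0, 29.0 and 30.1 FPKM in controls, while experimental libraries had 33.6, 33.4 and 33.1 FPKM, again without overlap. It rose by 0.16 (SE 0.042, limma adjusted p = 0.0365). The other 4 subunits of the ring did not pass: Mcm3 had a change of 0.12 (adjusted p = 0.11), Mcm4 of 0.08, Mcm5 of 0.04 and Mcm7 of -0.09. The loading factors Cdc6 and Cdt1 had changes of -0.13 and -0.19, with overlapping groups and adjusted p of 0.254 and 0.182.

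None of the 6 helicase activation genes was called at passage 6. Gins4 was at 15.2, 15.0 and 13.5 FPKM in controls and, after the storage failure, at 16.3, 15.0 and 16.3 FPKM, which overlapped (limma adjusted p = 0.222). Gins1 split by library: it measured 8.64, 8.89 and 8.35 FPKM in controls, 8.14 FPKM in experimental library 1, and 5.9 and 5.3 FPKM in libraries 2 and 3. Its log2 change of -0.39 had an adjusted p of 0.0773. Without experimental library 1 it was called lower.

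Of the polymerase and primase genes 2 of 7 fell at passage 6. Pole2 measured 16.1, 14.7 and 15.3 FPKM in controls, while experimental libraries had 13, 12.7 and 13.3 FPKM, with no overlap. It fell by 0.23 on the log2 scale (SE 0.051, limma adjusted p = 0.0244). Prim1 was at 19.4, 19.0 and 18.7 FPKM in controls and, after the storage failure, at 16.9, 16.0 and 16.7 FPKM, also without overlap. It fell by 0.19 (SE 0.046, limma adjusted p = 0.0288). The catalytic subunits Pola1, Pold1 and Pole had changes of -0.01, 0.01 and -0.15, and their groups overlapped.

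In the clamp and loader group 3 of 6 genes fell at passage 6, and all 6 fitted changes were below 0 (median -0.24). Rfc1 measured 18.5, 18.3 and 18.0 FPKM in controls, while experimental libraries had 14.7, 14.5 and 15.6 FPKM, with no overlap, and fell by 0.28 on the log2 scale (SE 0.049, limma adjusted p = 0.0117). It was the only one of the 44 genes called at both passages. Rfc5 was at 15.4, 17.0 and 16.7 FPKM in controls and, after the storage failure, at 13.2, 13.3 and 13.4 FPKM. The experimental values lay close together below every control, and Rfc5 fell by 0.28 (SE 0.053, limma adjusted p = 0.0141). Rfc3 measured 12.3, 12.3 and 11.6 FPKM in controls, while experimental libraries had 10.6, 9.81 and 10.8 FPKM, and fell by 0.20 (SE 0.056, limma adjusted p = 0.0477).

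Rfc4, called at passage 1, measured 11.3, 11.7 and 11.5 FPKM in controls, and the experimental libraries had 11.0, 7.18 and 8.54 FPKM at passage 6. All experimental values were below the controls, but library 1 only narrowly, and the change of -0.36 missed the threshold (SE 0.127, limma adjusted p = 0.0895). Rfc2 was at 9.57, 10.0 and 9.13 FPKM in controls and, after the storage failure, at 8.39, 7.63 and 8.62 FPKM, below the controls with an adjusted p of 0.0659. Pcna measured 62.5, 65.0 and 62.3 FPKM in controls, while experimental libraries had 67.9, 48.5 and 58.1 FPKM, on both sides of the controls (limma adjusted p = 0.425).

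Single-strand binding, Okazaki fragment joining and nucleotide supply gave 0 calls in 3, 2 and 5 genes at passage 6. Rpa2 was at 15.2 FPKM in each control and 16.8, 14.5 and 14.1 FPKM in experimental libraries. Lig1 measured 26.8, 28.9 and 27.2 FPKM in controls and, after the storage failure, 27.3, 30.3 and 30.7 FPKM, which overlapped. Rrm2 measured 27.2, 26.7 and 27.4 FPKM in controls, while experimental libraries had 26.5, 22.5 and 26.9 FPKM, with library 2 the lowest. Dut, which removes dUTP from the nucleotide pool, measured 20.6, 19.9 and 20.3 FPKM in controls, 22.5 FPKM in experimental library 1 and 14.9 and 13.8 FPKM in libraries 2 and 3. Experimental library 1 was above every control and libraries 2 and 3 were below, and the adjusted p was 0.269.

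E2f2 was at 12.9, 12.2 and 12.9 FPKM in controls and, after the storage failure, at 11.0, 11.1 and 11.3 FPKM at passage 6. The experimental values lay below the controls, opposite to passage 1, and E2f2 fell by 0.17 on the log2 scale (SE 0.049, limma adjusted p = 0.0489). E2f1, Ccne1 and Ccne2 had changes of -0.08, 0.02 and 0.03 and were not called. Chaf1a measured 13.5, 13 and 12.3 FPKM in controls, while experimental libraries had 10.3, 11.0 and 11.2 FPKM. It fell by 0.23 (SE 0.057, limma adjusted p = 0.0305), with no overlap.

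**Figure D3:**
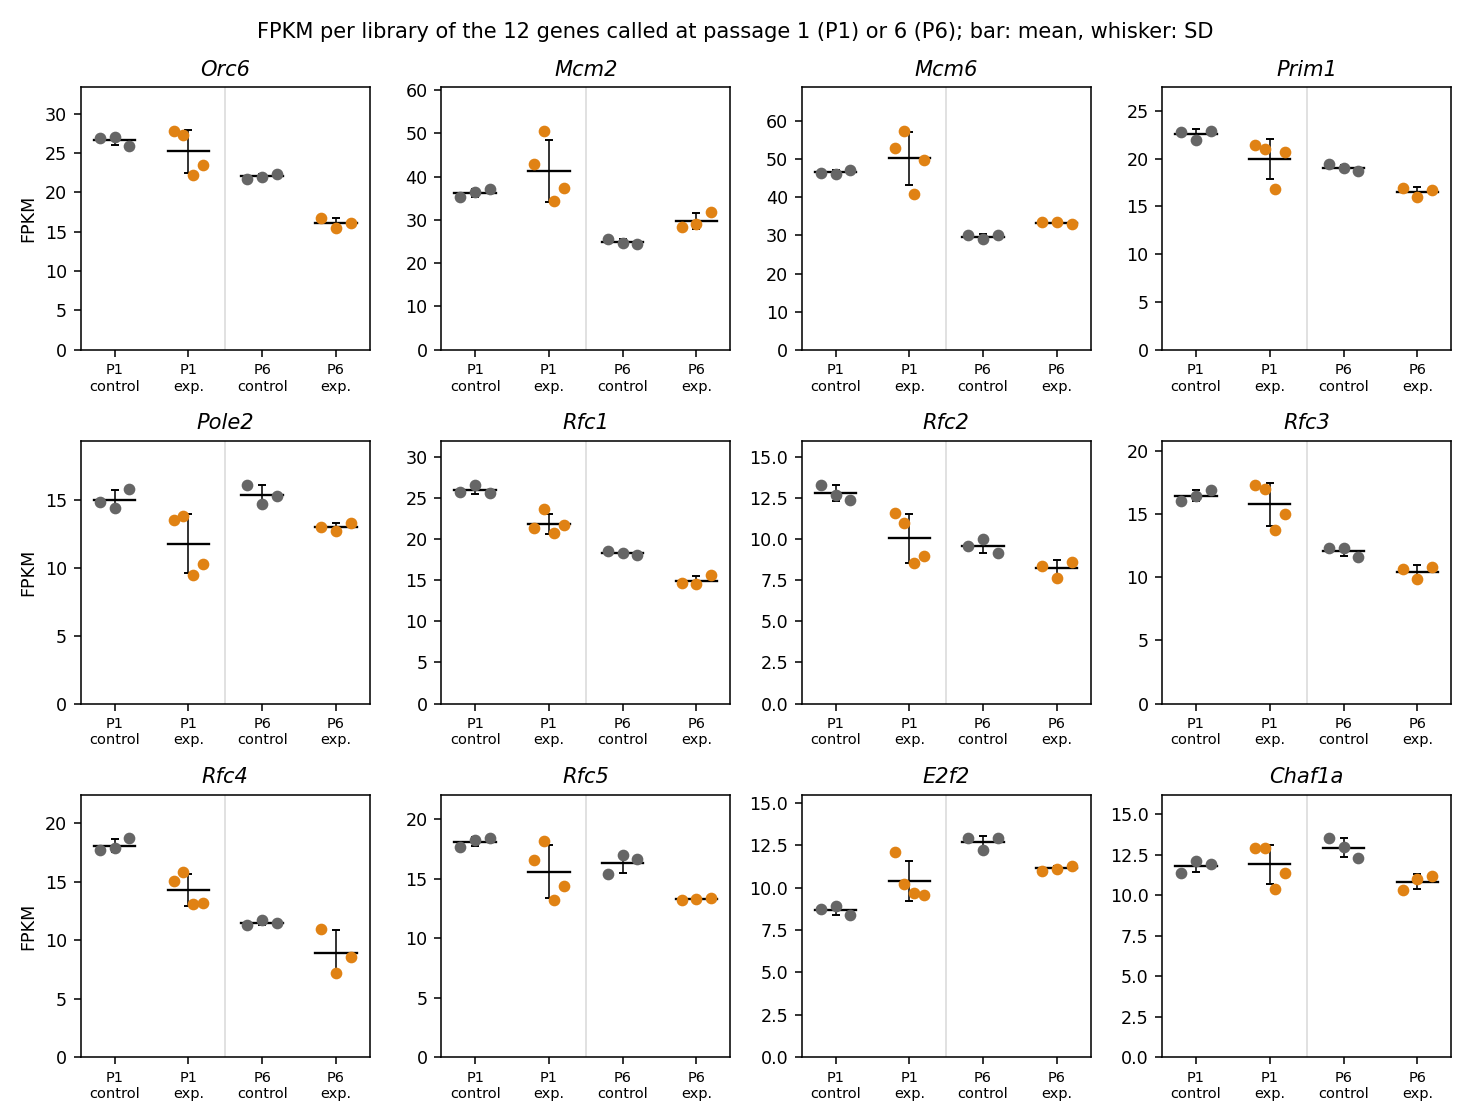
Each panel gives the FPKM of 1 gene on a linear axis from 0, with 1 dot per library, grey for controls and orange for experimental libraries of passages 1 (P1) and 6 (P6). Bars are group means and whiskers the SD, and the 12 genes are those called at either passage. The Orc6 dots of experimental libraries lie at 15.5 to 16.7 FPKM at passage 6, below all controls of that passage, and overlap with the controls at passage 1.

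Calls at passage 6 were also counted without the libraries that held liver and brain markers, and without experimental library 1. Against the controls, experimental library 1 alone, whose 14 liver markers summed to 1.34 FPKM with 0 of them at 1 FPKM, gave 2 higher genes (Mcm2 and Mcm6; 9.14% of all genes were higher) and 7 lower (Cdt1, Chaf1a, Mcm7, Orc6, Pole, Rfc1 and Rfc5; 10.1% of all genes were lower). In that fit the lone library is assumed to vary like the controls. Libraries 2 and 3 without library 1 gave 3 higher (Mcm2, Mcm3 and Mcm6; 15.1% of all genes were higher) and 16 lower, among them Dut, Gins1, Gins2, Pcna, Rpa3 and Tk1 (19.4% of all genes were lower).

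Leaving out 1 control at passage 6 left 0 higher and 2, 1 and 1 lower genes without controls 1, 2 and 3, and leaving out experimental library 2 or 3 left 1 higher and 3 or 4 lower. Calls over all genes went down in the same fits, from 8.98% higher and 10.8% lower. They were 3.36%, 3.19% and 3.21% higher and 3.36%, 2.62% and 3.03% lower without controls 1, 2 and 3. Without experimental library 2 they were 7.09% higher and 6.82% lower, and without library 3 5.85% higher and 7.06% lower. Mcm6, Prim1, Rfc3, E2f2 and Chaf1a each held in 1 of these 6 fits, Pole2 in 2, Mcm2 and Rfc1 in 3 and Rfc5 in 4, with adjusted p up to 0.179. Equal FPKM totals left 2 higher and 3 lower genes (9.19% of all genes were higher and 8.48% lower). Median-of-ratios scaling left 2 higher and 4 lower genes (11.3% of all genes were higher and 8.33% lower). It moved the share of higher calls among all called genes from 45.5% to 57.5%.

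The change at passage 6 was compared with that at passage 1 in 1 model over the 13 libraries. Of the 44 genes 2 differed, E2f2 and Orc6, both with a lower change at passage 6, and 0 had a higher one (also 0 at an unadjusted p under 0.05 by limma). Over all 13019 genes, 2261 were higher at that unadjusted threshold. Called genes made up 4.55% of the 44 and 14.7% of the 13019 genes tested, of which 8.46% were higher and 6.27% lower. The difference for E2f2 was -0.40 (log2, SE 0.097, limma adjusted p = 0.0184): its change was 0.23 at passage 1 and -0.17 at passage 6. The difference for Orc6 was -0.34 (SE 0.101, limma adjusted p = 0.0389), from -0.08 at passage 1 to -0.43 at passage 6. For the clamp and loader group 0 of 6 differed, and Rfc1 differed by -0.03 with a 95% interval from -0.19 to 0.12.

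The E2f2 difference held in 23 of 25 alternatives, and was lost without passage 1 control 3 (adjusted p = 0.0504) and with experimental library 1 as the lone experimental library of passage 6 (adjusted p = 0.0635). The Orc6 difference held in 12 of 25 and was lost in 10 of the 13 fits that left out 1 library, namely without any control of either passage, experimental library 1 or 2 of passage 1, or experimental library 2 or 3 of passage 6 (adjusted p 0.0508 to 0.0914). The number of lower genes among the 44 then ranged from 0, without passage 1 control 3, through 1 in 9 of the fits, to 4, without experimental library 3 of passage 1 or without experimental library 1 of passage 6. The lower share of all genes ranged from 3.49% to 8.8% over these fits.

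**Figure D4:**
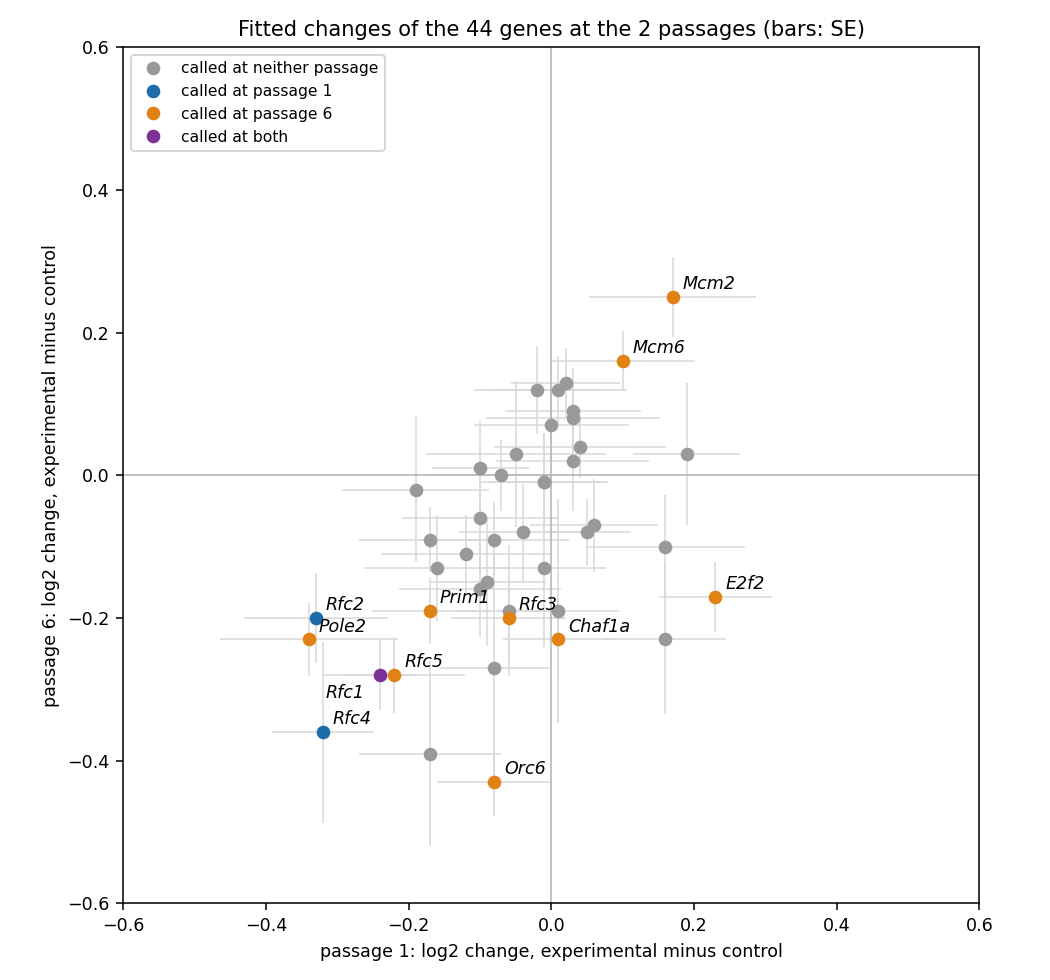
Each dot is 1 of the 44 genes, with the fitted log2 change at passage 1 on the horizontal and at passage 6 on the vertical axis, and bars of 1 SE. All dots lie within 0.5 of 0 on both axes, 12 are called at either passage and Rfc1 at both. E2f2 lies right of 0 and below 0.

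All fitted changes of the 44 genes lay between -0.5 and 0.5 (log2) at both passages, and 32 genes were called at neither. Over all genes tested, 30.4% were called at passage 1 and 19.8% at passage 6, and calls at neither or both were not counted. The median size of the change was 0.08 for the 44 genes and 0.15 for all genes at passage 1. At passage 6 it was 0.13 and 0.14. The median half-width of the 95% intervals of the 44 genes was 0.21 at passage 1 and 0.15 at passage 6, so smaller changes were in general not detectable with these libraries. The intervals are not adjusted for the number of genes, and larger changes could also miss the threshold. Pole2, at -0.34 at passage 1, and Gins1, at -0.39 at passage 6, were not called.

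Other genes of the replication cycle were counted by list, beside the shares of all genes called higher and lower: 11.5% and 18.9% at passage 1, 8.98% and 10.8% at passage 6, and 8.46% and 6.27% for the difference between passages. At an unadjusted p under 0.05, limma gave 2019 higher and 3344 lower of all genes at passage 1, and 1912 and 2628 at passage 6. For the difference it gave 2261 and 1770. Among 35 further fork and origin genes, 1 rose and 4 fell at passage 1 (2.86% and 11.4% of the list), with a median of -0.09. Cdc7, the kinase that fires origins, measured 11.6, 12.1 and 11.9 FPKM in controls, and the experimental libraries had 9.3, 9.71, 9.5 and 9.63 FPKM. It fell by 0.29 on the log2 scale (limma adjusted p = 0.00252). Pold3 and Orc5 fell by 0.30 and 0.26 (limma adjusted p 0.0131 and 0.0375), and Ticrr, which helps to load Cdc45, rose by 0.38 (adjusted p = 0.00613). The lower count was 1, 2 and 2 without controls 1, 2 and 3, and the higher count 4 without experimental library 3. At passage 6, 1 rose and 8 fell (2.86% and 22.9%), with a median of -0.13 against -0.04 for all genes. Cdc7 fell again, from 14.6 FPKM in each control to 11.6, 10.2 and 11.3 FPKM (log2 change -0.38, limma adjusted p = 0.00658). Topbp1, Pold3 and Atad5 fell by 0.29, 0.26 and 0.31 (limma adjusted p 0.00879, 0.0125 and 0.018). Without any 1 of the controls of passage 6, the lower count of this list was 2, 1 and 1 and the higher count 0. Without experimental library 1 it was 12 lower and 1 higher, and without library 2 it was 5 lower and 0 higher. Experimental library 1 alone, without the libraries that held liver markers, gave 6 lower and 0 higher.

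Of 28 further G1/S regulators 25 were tested, and 6 rose and 1 fell at passage 1 (24% and 4%). Mycn, the oncogene of neuroblastoma, measured 6.53, 7.97 and 8.57 FPKM in controls, and the experimental libraries had 13.9, 14.6, 14.6 and 15.1 FPKM. It rose by 0.84 (log2, limma adjusted p = 0.000437). Experimental library 3 was not the lowest for Mycn. Myc and E2f8 rose by 0.38 and 0.34 (limma adjusted p 0.00667 and 0.0102), and Ccnd3, a cyclin D gene, fell by 0.37 (adjusted p = 0.00816). The higher count was 3 without control 2, control 3 or experimental library 4, and the lower count 4 and 3 without experimental libraries 1 and 2. At passage 6, 0 rose and 4 fell (16%): Fbxo5 by 0.43, Tfdp1 by 0.33, Cdk2 by 0.32 and E2f3 by 0.29 (limma adjusted p 0.00378 to 0.024). Without any 1 of the controls the lower count was 1, and with experimental library 1 alone it was 7. With all libraries of passage 6, limma gave 0 higher and 6 lower at an unadjusted p under 0.05. The difference between passages was lower for 7, Mycn among them at -0.82 (limma adjusted p = 0.0073), and higher for 1 (28% and 4%). Leaving out 1 library gave 3 to 9 lower, with 3 without passage 1 control 1 or passage 6 control 1 or 2, and 0 to 2 higher. With library 1 alone at passage 6 it was 6 lower and 0 higher.

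The 33 mitosis and G2/M genes formed another list. At passage 1, 16 rose and 0 fell (48.5% of the list higher, limma, against 11.5% of all genes, also 0 lower at an unadjusted p under 0.05), with a median of 0.19. Ccnb1, a mitotic cyclin, measured 69.1, 71.9 and 70.3 FPKM in controls, and the experimental libraries had 97.8, 109, 88.0 and 96.5 FPKM. It rose by 0.46 (limma adjusted p = 0.00241), and Ect2, Plk1 and Kif23 rose by 0.40, 0.38 and 0.36. The list median per experimental library was 0.23, 0.30, 0.07 and 0.21, above 0 in library 3 where the 44 replication genes stood at -0.25. The count was 11 without any 1 of the controls, where 6.78% to 7% of all genes were higher. It was 26 without experimental library 3 (12.2% of all genes higher). With controls 2 and 3 against experimental libraries 1 to 3 it was 2 (3.54% of all genes higher). At passage 6, 1 rose and 4 fell (3.03% and 12.1%). Without any 1 of the controls 0 were called, without experimental library 1 it was 0 higher and 8 lower, without library 2 or 3 it was 1 and 0 higher and 2 and 1 lower, and with library 1 alone 1 higher and 2 lower. The difference between passages was lower for 15 of 33 genes (45.5%, against 6.27% of all genes) and higher for 0. Leaving out 1 library gave 7 lower, without passage 1 control 3, to 23 lower, without passage 1 experimental library 3. It was 9 without control 2 of either passage or passage 6 experimental library 2, and 6 with library 1 alone at passage 6. Whether the lists differ from each other was not tested.

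Of 29 further nucleotide synthesis genes 0 rose and 7 fell at passage 1 (24.1%), with a median of -0.15. Dctd, which converts dCMP to dUMP, measured 18.9, 18.5 and 17.6 FPKM in controls, and the experimental libraries had 13.8, 13.6, 11.7 and 13.4 FPKM. It fell by 0.45 on the log2 scale (limma adjusted p = 0.00203). Shmt2, Mthfd2 and Pfas fell by 0.28, 0.19 and 0.38 (limma adjusted p 0.00965, 0.0139 and 0.0155). The lower count was 14 without experimental library 2 and 2 to 4 without a control or without experimental library 4. At passage 6, Atic rose by 0.20 and Dtymk fell by 0.29 (limma adjusted p 0.0214 and 0.0342; 3.45% of the list each way). Both calls were lost without any 1 of the controls, where this list had 0 calls. It had 3 higher and 5 lower without experimental library 1, 1 higher and 0 lower without library 2 or 3, and 2 of each with library 1 alone. Of 13 further chromatin genes of replication, 0 were called at either passage or in the difference, with 1, 2 and 0 at an unadjusted p under 0.05 by limma. Passage 6 gave 2 lower without experimental library 1, and 1 higher and 2 lower with library 1 alone, while passage 1 gave 1 higher without experimental library 3. The 2 of highest level were Ssrp1, of the histone chaperone FACT, and Uhrf1, which recruits the maintenance DNA methyltransferase. Ssrp1 was at 104, 98.5 and 102 FPKM in controls and, after the storage failure, at 107, 112, 90.8 and 99.6 FPKM at passage 1.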

How the data were processed

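The 13 libraries were stranded, made from poly(A) RNA with an integrity number above 7.0, per the labels' protocols. The authors deposited FPKM values, with each passage in a table of its own. The tools named in the submitters' processing notes, without versions, are HISAT2, StringTie, cutadapt, edgeR and DESeq2, and the genome build is mm10, while the scaling between libraries is not given in the sources used here. Of 34857 genes, 1 with an empty cell was left out, and 34730 identifiers matched a symbol in the GRCm38 annotation. Depth is unknown, and errors rest on replicate libraries alone.

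The scale of analysis was log2(FPKM + 1). Each passage was fitted by limma 3.58.1 (R 4.3.3, intensity trend, equal weights, two-sided) over genes reaching 1 FPKM in 3 or more of its libraries. P-values were adjusted by Benjamini-Hochberg over all genes tested with a threshold of 0.05, and a gene is called where it passes. Fold changes include the added 1 FPKM and understate changes of low genes. The passages were compared as a contrast over 13 libraries, using only the change within each. Python 3.11.15 with pandas 2.3.3 and matplotlib 3.10.9 served for tables and figures.

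The 44 genes and the other lists were chosen with earlier results of these data known. Per-library values are given for called genes and for the most abundant gene of a role without calls, and for up to 4 called genes of each other list; other genes are named by choice, with their values in view. Tested on simulated data of 12469, 12458 and 13019 genes for passage 1, passage 6 and their difference, the fit called 78%, 69% and 55% of 100 genes simulated with a log2 change of 0.5, and 100%, 97% and 94% of 100 simulated with a change of 1. False calls were 4.3%, 2.92% and 6.29% of calls. The simulated noise was drawn for each gene independently, and the changed genes were taken from those of higher mean level. Shifts shared by many genes of a library were not simulated, so these rates need not hold for the real libraries. Alternatives were other pseudocounts, filters, scalings and limma settings, a replicate block and leaving out libraries. The lone passage 6 library in the difference and the library ranks under other scalings were added after seeing the data.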

Additional observations from a re-analysis of the deposited data

Results flagged for a closer look

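Prim1 measured 16.8 FPKM in experimental library 3 of passage 1, against 21.4, 21.0 and 20.7 FPKM in the other experimental libraries, a gap that is large for a group of 4. It was the only such value in 44 groups of 4 examined, and chance gives about 1 in 20.

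The change of Orc6 differed between the passages by -0.34 (log2, limma adjusted p = 0.0389) and that of E2f2 by -0.40 (limma adjusted p = 0.0184), each tested as the change at passage 6 minus the change at passage 1.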

How the results depend on the processing

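Precision here comes from 3 or 4 libraries a group, since FPKM hold no counts. Of 2801 values of the 44 genes under an alternative, 0 turned direction with a call, 106 lost a call, 43 gained one and 171 changed sign with a call in neither. At passage 1, 3 lower and 0 higher genes became 5 and 1 with array weights, 0 lower with controls 2 and 3 against experimental libraries 1 to 3, 2 higher under equal FPKM totals and under median-of-ratios scaling, 1 higher under quantile normalization and 1 higher in 1 fit over both passages. Leaving out 1 library gave 0 to 5 higher and 1 to 6 lower. At passage 6, 8 lower genes became 5 with no filter on low values, 3 with equal FPKM totals, 4 with median-of-ratios scaling and 13 with array weights. There 2 higher genes became 1 with no filter, quantile normalization or no trend, and 0 in 1 fit over both passages. Leaving out 1 library gave 0 to 3 higher and 1 to 16 lower. For the difference between passages, 2 lower genes became 1 with no filter and 0 with passage 6 experimental library 1 alone, and leaving out 1 library gave 0 to 4. The cause was not tested. With the replicate number as a block, the counts were 0 lower at passage 1, 0 higher and 3 lower at passage 6 and 1 lower for the difference. The labels do not say whether the numbers pair the libraries. Deviations of same-numbered libraries correlated at 0.166, -0.192 and 0.239 at passage 1 and at -0.066, -0.06 and 0.033 at passage 6. Not every library correlated best with its own number. Deviations from means of 3 or 4 libraries depend on each other, so these correlations cannot decide whether libraries were paired.

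Over all genes, 1434 higher and 2358 lower at passage 1 became 1933 and 3095 with array weights, 715 and 1098 with the block and 441 and 588 with controls 2 and 3 against experimental libraries 1 to 3. Leaving out a library gave 845 to 1575 and 1300 to 2483. Quantile normalization gave 1825 and 1815, and 1 fit over both passages gave 1573 and 2622. At passage 6, 1119 and 1343 became 641 and 645 with no filter, 695 and 743 with the block and 397 to 1885 and 326 to 2411 without a library. Array weights there gave 1587 and 1951, and quantile normalization 1190 and 1143. No trend gave 1036 and 1298, and 1 fit over both passages 1330 and 1617. For the difference, 1102 and 816 became 732 and 453 with no filter, 1770 and 1422 with array weights, 450 and 278 with the block and 706 to 1406 and 454 to 1146 without a library.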

Other observations

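A pair of genes that restrain the G1/S transition, Cdkn1a and Rb1, were highest in experimental library 3 of passage 1. That library gave the highest experimental value of passage 1 for 29.4% of all genes tested. Cdkn1a, the cyclin-dependent kinase inhibitor p21, measured 24.4, 20.5, 34.1 and 29.9 FPKM in experimental libraries 1 to 4 and 27.9, 28.5 and 27.0 FPKM in controls. Library 3 was the highest and library 2 the lowest. Rb1, the retinoblastoma gene, measured 3.72, 4.26, 5.53 and 5.16 FPKM in experimental libraries and 3.74, 3.96 and 3.73 FPKM in controls, again with library 3 the highest. Other inhibitors did not share this order: Cdkn2c was lowest in library 3, at 4.88 FPKM, and Cdkn1b and Cdkn2d were highest in library 1, at 18.5 and 22.2 FPKM. Among genes related to Rb1, Rbl1 was highest in library 4, at 6.17 FPKM, and Rbl2 in library 3, at 3.56 FPKM. Neither Cdkn1a nor Rb1 passed the test between the groups at passage 1, and the genes of this paragraph were singled out after their values were seen.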
